A study of Mus musculus with 60 samples.

Results

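The 10 genes described here are Ttr, Kl, Aqp1, Folr1, Clic6, Otx2, Enpp2, Sostdc1, Slc4a5 and Prlr, known for their expression in the epithelium of the choroid plexus, and they were looked up by symbol among the 24508 genes of the deposited expression table. All 10 were found, and all 10 had a mean of at least 0.5 RPKM (reads per kilobase of transcript, scaled for sequencing depth), the minimum used for testing. RNA was taken from frozen hippocampus of 30-week-old mice on a mixed CBA x C57BL/6 background, with 9 wild-type (WT) and 9 R6/1 libraries, each stated to be an independent biological replicate. The R6/1 line, which models Huntington's disease, expresses exon 1 of human huntingtin with a long CAG tract from a transgene. The WT mice lack this transgene, and the labels give no other difference between the groups. Lamin B1 chromatin of the same tissue and age came from pools of 5 mice, and its domains were deposited as 1 list per genotype.

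The choroid plexus is a fringe of vascular tissue that hangs into the ventricles of the brain, and the ventricle next to the hippocampus holds one. Its epithelium secretes cerebrospinal fluid by moving ions, bicarbonate and water, and it carries vitamins and hormones between blood and fluid. It lies beside the hippocampus and is not part of the hippocampus proper. The 10 genes cover these roles: the secreted proteins Ttr, Enpp2, Sostdc1 and the shed form of Kl, the transporters and channels Aqp1, Slc4a5, Clic6 and Folr1, the hormone receptor Prlr, and the transcription factor Otx2. Some are also known outside this epithelium: Kl in hippocampal neurons and Enpp2 in oligodendrocytes.

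Depth was similar between the genotypes, with 12299434 to 16457022 reads on genes in WT and 13260311 to 16736544 in R6/1. Reads of the 10 genes together made up 0.0238% to 0.358% of a library. No library had a zero for any of them, and the fewest reads behind a value were 3, for Aqp1, Folr1 and Slc4a5. RNA integrity was stated to be high in all libraries, and the labels name no batch. All 7 hippocampal neuron genes were measured in every library, but so were 3 thalamic and 3 striatal genes, so detection alone does not check the dissection. The summed level of the thalamic genes ran from 11.2 to 52.9 RPKM in WT and from 5.43 to 11.9 in R6/1.

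Ttr encodes transthyretin, which carries thyroid hormone and retinol-binding protein into the cerebrospinal fluid, and it was the most abundant of the 10. In WT libraries 1 to 9 it stood at 925, 106, 1035, 112, 894, 556, 19.5, 19.0 and 33.9 RPKM. In R6/1 libraries 1 to 9 it stood at 375, 563, 1696, 996, 115, 282, 33.4, 491 and 48.1 RPKM. The levels therefore ran over a 54.4-fold range among WT libraries and a 50.8-fold range among R6/1 libraries, and both genotypes held very low and very high libraries. WT libraries 7, 8 and 9 and R6/1 libraries 7 and 9 were low, and library 3 was the highest of each genotype. The number of Ttr reads went from 311 to 36271, so even the lowest library was well above the 3 reads that a count of 0 allows by counting error alone. In tissue extracts such as these, fewer epithelial cells and less RNA per cell cannot be told apart.

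The other 9 genes tended to be high and low in the same libraries as Ttr, as the plot of levels by library shows, though not in exactly the same order. Kl, an anti-ageing protein that acts as coreceptor for the hormone FGF23, ran from 4.82 through a median of 7.19 to 17.1 RPKM in WT and from 3.32 through 6.44 to 16.1 in R6/1. Enpp2, the enzyme autotaxin that makes the lipid signal lysophosphatidic acid, ran from 54.8 through 80.8 to 261 RPKM in WT and from 45.2 through 124 to 323 in R6/1. These are the genes with the narrowest ranges, 3.55-fold and 4.77-fold over WT libraries. Sostdc1, a secreted inhibitor of BMP and Wnt signals, ran from 0.870 through 2.24 to 13.2 RPKM in WT and from 2.37 through 6.45 to 13.5 in R6/1. Its lowest R6/1 library was above the WT median.

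Among the transporters, Folr1, the folate receptor that brings folate into the fluid, ran from 0.135 through 1.02 to 6.90 RPKM in WT and from 0.413 through 3.19 to 10.5 in R6/1. Aqp1, the water channel of the ventricle-facing membrane, ran from 0.145 through 0.518 to 3.33 RPKM in WT and from 0.0790 through 0.862 to 4.57 in R6/1. Slc4a5, a sodium bicarbonate cotransporter, ran from 0.0372 through 0.286 to 2.62 RPKM in WT and from 0.0993 through 0.782 to 4.59 in R6/1. Folr1, Aqp1 and Slc4a5 thus varied over 22.9-fold to 70.4-fold ranges in WT, although their lowest values rest on 3 to 8 reads. Clic6, a protein of the chloride intracellular channel family, ran from 0.577 through 1.31 to 7.17 RPKM in WT and from 0.760 through 3.08 to 10.3 in R6/1.

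Prlr, the prolactin receptor, ran from 0.322 through 0.50 to 2.25 RPKM in WT and from 0.461 through 0.871 to 2.40 in R6/1. Otx2, a homeodomain factor needed for choroid plexus development and upkeep, ran from 0.279 through 0.604 to 2.46 RPKM in WT and from 0.104 through 1.02 to 2.41 in R6/1. By median over the 18 libraries the levels, which are per length and so can be set side by side, ranked in the order Ttr, Enpp2, Kl, Sostdc1, Clic6, Folr1, Otx2, Prlr, Aqp1 and Slc4a5. Within a genotype some neighbours changed places: in R6/1 the median of Sostdc1 (6.45) was just above that of Kl (6.44) and that of Folr1 (3.19) above Clic6 (3.08), and in WT that of Aqp1 (0.518) was above Prlr (0.50). Enpp2 was above Kl in 18 of 18 libraries and Sostdc1 above Clic6 in 18 of 18. Ttr was above Enpp2 in 13 of 18, since the order turned in the 5 libraries where Ttr was lowest. Prlr was above Aqp1 in 9 of 18 and Otx2 above Prlr in 10 of 18, so these neighbours did not differ beyond the spread of the libraries.

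**Figure D1:**
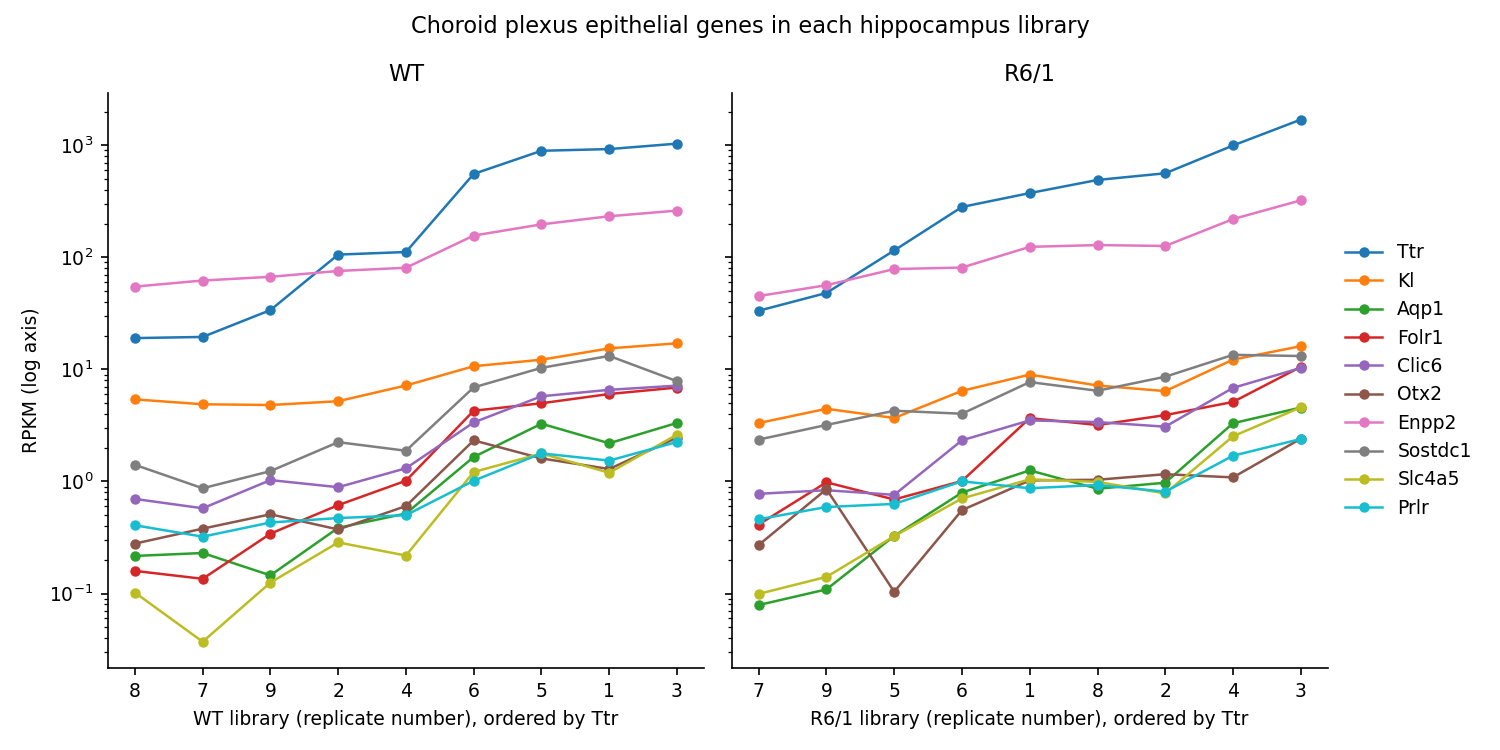
RPKM on a log axis for the 10 genes in each WT (left) and R6/1 (right) library, ordered by Ttr, with 1 point per library and lines joining the points of a gene. Ttr climbs from 19.0 to 1035 RPKM in WT and from 33.4 to 1696 in R6/1, and the other genes climb with it at lower levels and less steeply.

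Co-variation was measured within each genotype, so that a difference between WT and R6/1 could not produce it. The 10 genes and the tests were chosen with earlier results of these data known, which the p-values do not take into account. All 45 pairs of the 10 genes were positively correlated over the 9 WT libraries, with a median Pearson r of 0.964 on log2(RPKM + 0.5) and a range from 0.859 for Otx2 with Sostdc1 to 0.991 for Clic6 with Enpp2. All 45 pairs were also positively correlated over the 9 R6/1 libraries, with a median r of 0.938 and a range from 0.761 for Ttr with Otx2 to 0.992 for Aqp1 with Slc4a5. In a two-sided exact permutation test, adjusted over the 90 relations, all 45 pairs passed 0.05 by r in each genotype (highest adjusted p = 0.00967 in WT and 0.0172 in R6/1). By Spearman's rho, 44 of 45 passed in each genotype, the exceptions being Otx2 with Sostdc1 in WT (exact permutation adjusted p = 0.0596) and Otx2 with Prlr in R6/1 (exact permutation adjusted p = 0.0666). Without the 2 libraries farthest from the median of the first gene, the median r was 0.964 in WT and 0.915 in R6/1. In R6/1 the count of pairs that passed by r was 41 without those libraries, 39 without library 3 and 43 without library 7.

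With Ttr alone, r in WT ran from 0.903 for Otx2 through 0.941 for Kl and 0.969 for Enpp2 to 0.988 for Folr1. In R6/1 it ran from 0.761 for Otx2 to 0.960 for Enpp2. The exact permutation test gave an adjusted p of 0.00369 or lower for each of these relations in WT, with rho between 0.883 and 1. In R6/1 the highest adjusted p of the exact permutation test was 0.0171, for Otx2, with rho between 0.850 and 0.983. Without the 2 libraries farthest from the median of Ttr (WT 1 and 3, R6/1 7 and 9), r stayed between 0.892 and 0.983 in WT and between 0.880 and 0.982 in R6/1. Otx2 was the gene least tied to the others, with a median r of 0.793 to the other 9 in R6/1. Its r with Ttr in R6/1 was 0.655 without library 3 (exact permutation adjusted p = 0.0800) and 0.694 without library 7 (exact permutation adjusted p = 0.0583), and 0.949 without libraries 7 and 9 together. Otx2 stood high in R6/1 library 9 (0.854 RPKM) and low in R6/1 library 5 (0.104 RPKM, 4 reads) for their Ttr.

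**Figure D2:**
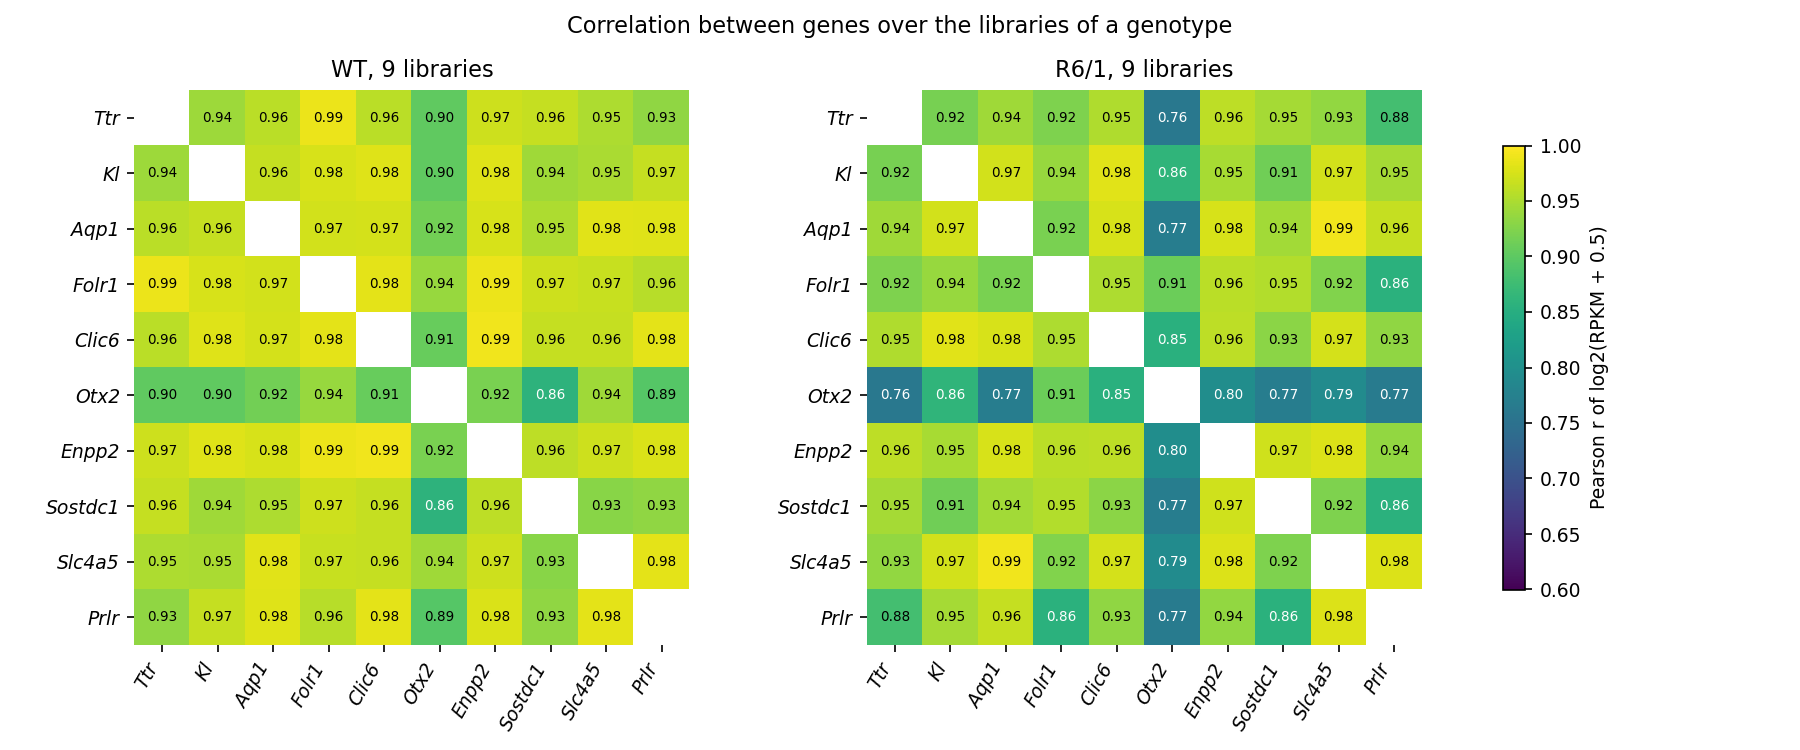
Pearson r between each pair of the 10 genes on log2(RPKM + 0.5), over the 9 WT (left) and 9 R6/1 (right) libraries, with the value printed in each square and a colour scale from 0.6 to 1. Squares are high throughout both panels, and the row of Otx2 is the lowest in R6/1, down to 0.76.

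Because the genes moved together and Otx2 is the transcription factor among them, the promoters given by RefSeq (build GRCm38.p6, 250 bases before to 50 after a start) were searched for TAATCC on both strands, the core that OTX-type homeodomains are known to bind. Promoters were at hand for 5 of the 10 genes (Kl, Aqp1, Otx2, Slc4a5 and Prlr), with 10 start sites between them. The motif was in 1 of the 10, at a start of Otx2 itself, while 7.06% of 32851 promoters of the same length hold it. The match is shown first, in 30 bases, followed by the 250 bases before the start for Kl and Aqp1 and for the most upstream start of Otx2, none of which overlaps an exon annotated on NCBIM37. Capitals mark the motif, here read as GGATTA because it lies on the opposite strand, with its first base 211 bases before the start.
Otx2, chr14:48665303-48665332, minus strand: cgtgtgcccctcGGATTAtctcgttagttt
Otx2, chr14:48667645-48667894, minus strand: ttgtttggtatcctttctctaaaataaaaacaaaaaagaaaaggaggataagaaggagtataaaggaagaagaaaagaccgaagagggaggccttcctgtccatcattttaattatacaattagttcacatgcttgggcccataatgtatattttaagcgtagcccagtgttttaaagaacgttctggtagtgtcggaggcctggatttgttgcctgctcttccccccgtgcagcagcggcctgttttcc
Kl, chr5:150952357-150952606, plus strand: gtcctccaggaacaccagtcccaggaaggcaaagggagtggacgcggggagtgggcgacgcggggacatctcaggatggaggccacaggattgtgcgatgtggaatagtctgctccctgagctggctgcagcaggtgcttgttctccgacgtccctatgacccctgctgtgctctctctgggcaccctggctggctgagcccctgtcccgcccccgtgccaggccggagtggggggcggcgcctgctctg
Aqp1, chr6:55336049-55336298, plus strand: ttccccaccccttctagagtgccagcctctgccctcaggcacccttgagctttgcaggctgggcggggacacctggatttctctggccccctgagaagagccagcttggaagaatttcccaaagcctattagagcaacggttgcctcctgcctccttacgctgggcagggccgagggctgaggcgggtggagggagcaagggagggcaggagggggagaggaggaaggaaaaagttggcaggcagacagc
None of the promoters of Kl, Aqp1, Slc4a5 and Prlr in these windows holds the 6 letters, which says nothing about binding elsewhere.

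The libraries also ordered other genes of this epithelium. The slope of a gene on Ttr, both on log2(RPKM + 0.5) and at equal genotype, was fitted with limma to 14445 genes, and it passed a Benjamini-Hochberg adjusted p of 0.05 for 114 of them (0.789%), of which 83 (0.575%) were positive and 31 (0.215%) negative. All 9 of the genes other than Ttr passed with positive slopes, from 0.60 ± 0.04 (SE, n = 18 libraries, limma adjusted p = 3.5e-08) for Folr1 to 0.25 ± 0.03 (SE, n = 18, limma adjusted p = 2.8e-05) for Prlr. Between them came Clic6 (0.50), Sostdc1 and Aqp1 (both 0.47), Slc4a5 (0.42), Enpp2 (0.39), Kl (0.30) and Otx2 (0.28). A slope of 1 would mean that a gene changed by the same factor as Ttr, and the added 0.5 flattens the slopes of the genes with the lowest RPKM. Of 23 tested genes on a list of 24 further choroid plexus genes, 20 had a positive slope past the threshold. That list was chosen with earlier results of these data known, so the count is a description only. The 3 that did not pass were the junction protein gene Cldn1, the transporter Slc13a4 and the homeobox gene Msx1 (slopes 0.12, 0.13 and 0.10).

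Lists of other cell types held few or no genes that passed the same test. Of 7 tested ependymal genes, which mark the ciliated lining of the ventricles, 2 had a positive slope past the threshold, Foxj1 (0.17) and Dynlrb2 (0.24), and the other 5 had slopes between 0.12 and 0.27. By deviations from the genotype means over 18 libraries, the r of the 7 with Ttr ran from 0.609 to 0.785. This lies within the range of the further choroid plexus genes, 0.549 to 0.960. For the meningeal and stromal genes r ran from -0.277 to 0.607. None of 9 meningeal and stromal, 6 endothelial, 7 oligodendrocyte or 7 hippocampal neuron genes passed, nor did any of 3 thalamic or 3 striatal genes. Whether the share of genes that passed differs between these lists was not tested.

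By the deviation of each library from its genotype mean, over 18 libraries and as a description, 18 of 14445 genes had an r with Ttr above 0.9, and 8 of these were among the 10. The genes outside the 10 with the most similar pattern were 1500015O10Rik (r = 0.960), Cldn2 (0.953), F5 (0.942), Lbp (0.937), Sulf1 (0.929), Slc31a1 (0.920), Ace (0.920), Col8a2 (0.907), Kcnj13 (0.906) and Wfdc2 (0.904). Of these, 8 were on the list of further choroid plexus genes, which was chosen with earlier results of these data known. The exceptions were Slc31a1, a copper transporter, with a slope of only 0.10, and Col8a2, a collagen gene, with a slope of 0.27. Otx2 was the member farthest from Ttr, at rank 33 with r = 0.844.

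Some co-variation of these genes remained once a straight line on log2 Ttr had been removed. After adjustment for Ttr and genotype, the 36 pairs of the other 9 genes had a median r of 0.598 over the 18 libraries (median rho 0.544), from 0.0714 for Sostdc1 with Slc4a5 to 0.889 for Aqp1 with Slc4a5. In a two-sided permutation test with 100000 resamples, adjusted over the 36 pairs, 19 passed 0.05 by r and 20 by rho. Aqp1 with Slc4a5 had a rho of 0.917 (permutation adjusted p = 0.00018 for r and 0.00036 for rho), and Kl with Clic6 an r of 0.864 and a rho of 0.816 (permutation adjusted p = 0.00018 and 0.00078). These p-values are approximate, because the same 2 terms had been removed from every gene. Error in Ttr itself, and curvature that a straight line misses, enter the genes together. They were not told apart from co-variation beyond Ttr. None of the 8 pairs with Sostdc1 passed, their r running up to 0.497 with Folr1 (rho 0.430, permutation adjusted p = 0.0630 for r and 0.120 for rho). Of the 8 pairs with Otx2, 1 passed by r, with Folr1 (r = 0.782, rho 0.771, permutation adjusted p = 0.00101 and 0.00190). Without WT libraries 7 and 8, the farthest from the median of Ttr, the median r was 0.60.

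Between the genotypes, the 10 genes did not separate. None of the 10 passed an adjusted p of 0.05 in limma's test of R6/1 against WT, against 48.3% of all 14446 genes tested (24.8% higher and 23.5% lower), and none had an unadjusted p under 0.05. In every one of the 10 the levels of the genotypes overlapped, while 11.9% of all tested genes had no overlap. In the authors' deposited table, none of the 10 had an adjusted p under 0.05 either, against 40.4% of the 18395 genes with one, and none had an unadjusted p under 0.05. Ttr averaged 411 ± 439 RPKM (SD, n = 9) in WT and 511 ± 538 (SD, n = 9) in R6/1. Its difference on log2(RPKM + 0.5) was 0.77 ± 0.91 (SE, limma adjusted p = 0.51), with a 95% interval from -1.13 to 2.68. Leaving out 1 library moved it to values between 0.391 (without WT library 8) and 1.15 (without R6/1 library 7), none of them past the threshold. An interval of this width holds large changes in both directions, so these data do not show that Ttr was alike in the genotypes.

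The other 9 had narrower but still wide intervals. Sostdc1 was 5.11 ± 4.59 RPKM (SD, n = 9) in WT and 7.03 ± 4.12 (SD, n = 9) in R6/1, a difference of 0.71 ± 0.45 on the log2 scale (SE, limma adjusted p = 0.201). Kl was 9.21 ± 4.80 RPKM (SD, n = 9) in WT and 7.65 ± 4.22 (SD, n = 9) in R6/1, a difference of -0.26 ± 0.30 (SE, limma adjusted p = 0.496). The remaining differences lay between -0.09 for Otx2 and 0.42 for Folr1, with limma adjusted p from 0.55 to 0.999. The median difference of the 10 was 0.18, beside 0.00 over all genes tested, and it lay between 0.00366 (without R6/1 library 3) and 0.339 (without WT library 3) when each library was left out.

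Setting each library to the same Ttr narrowed the spread. Each gene's slope was fitted to these same libraries, so a narrower spread follows from the correlation with Ttr and is no separate result. With log2(Ttr RPKM + 0.5) as a covariate, the SD between WT libraries went from 0.70 to 0.24 for Kl, from 0.89 to 0.24 for Enpp2, from 1.27 to 0.35 for Sostdc1 and from 1.49 to 0.23 for Folr1 on the log2 scale. The SD was smaller for all 9 genes in both genotypes, but Folr1 in R6/1 kept 0.46 of 1.21, and Otx2 in R6/1 kept 0.43 of 0.67. Of the 9 genes, 2 then passed an adjusted p of 0.05, Kl and Enpp2, both lower in R6/1, while 48.6% of all 14445 genes passed and 23.6% were lower. The share of the 9 genes that passed was therefore below that of all genes. Ttr itself was higher in R6/1 by 0.77, a difference that did not pass. Through the positive slopes, the adjustment lowers the R6/1 side of all 9 genes by a share of it. The median difference of the 9 genes at equal Ttr was -0.16, beside 0.00 over all genes, and 8 of the 9 differences were negative. Both depended on the covariate and its form. With Folr1 in place of Ttr the median was -0.11, over 9 genes that include Ttr. With the mean of the other members it was -0.00163 over all 10. With the square of Ttr added the median was -0.0317 and 5 of 9 were negative. With Ttr on the linear scale it was 0.00768 and 4 of 9 were negative (Kl, Aqp1, Otx2 and Enpp2). With the slope on Ttr fixed at 1 it was -0.64 and all 9 were negative. Leaving out 1 library gave medians from -0.233 (without WT library 2) to -0.0617 (without R6/1 library 5).

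At a Ttr of 211 RPKM, Kl ran from 6.51 through a median of 8.80 to 11.5 RPKM in WT and from 4.51 through 6.11 to 8.43 in R6/1. All 9 R6/1 libraries lay below the WT median and 5 lay below the lowest WT library. The difference was -0.49 ± 0.12 on log2(RPKM + 0.5) (SE, limma adjusted p = 0.00243), with a 95% interval from -0.74 to -0.24. Kl was called under every alternative except a slope on Ttr fixed at 1, where no gene of the 14445 was called by limma (adjusted p = 0.707 for Kl). Across the other 32 alternatives its difference stayed between -0.54 and -0.39.

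Enpp2 at the same Ttr ran from 99.3 through 130 to 158 RPKM in WT and from 72.4 through 99.0 to 142 in R6/1. Of the R6/1 libraries 5 lay below the lowest WT library and 1 lay above the WT median. As measured, Enpp2 averaged 132 RPKM in WT and 131 in R6/1, a difference of -0.02 ± 0.38 (SE, limma adjusted p = 0.973). The lower level in R6/1 therefore appeared only at equal Ttr and rests on the difference of Ttr itself (0.77), which did not pass. At equal Ttr the difference of Enpp2 was -0.32 ± 0.11 (SE, limma adjusted p = 0.0242), with a 95% interval from -0.56 to -0.09. The call was lost without WT library 3 (-0.29, limma adjusted p = 0.0550) and with Ttr on the linear scale as the covariate (-0.19, limma adjusted p = 0.162), an alternative added after the data were seen. As for Kl, it was also lost with the slope on Ttr fixed at 1, where no gene was called.

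Sostdc1 was the one gene of the 9 with a positive difference at equal Ttr. It ran from 2.70 through 3.62 to 6.38 RPKM in WT and from 3.45 through 5.79 to 6.84 in R6/1, and 8 of 9 R6/1 libraries lay above the WT median. The difference was 0.35 ± 0.14 (SE, limma adjusted p = 0.0512), with a 95% interval from 0.05 to 0.65, and it did not pass. It passed under 12 of 33 alternatives, among them without WT library 1 (limma adjusted p = 0.00955), WT 5 (0.0383), WT 8 (0.0332), R6/1 6 (0.0170) or R6/1 8 (0.0384), and with the mean of the other members as the covariate (0.55, adjusted p = 0.00428).

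Aqp1 had a difference of 0.001 ± 0.45 as measured (SE, limma adjusted p = 0.999). At equal Ttr it stood at a median of 1.00 RPKM in WT and 0.707 in R6/1. This difference of -0.36 ± 0.16 did not pass (SE, limma adjusted p = 0.0746), with a 95% interval from -0.70 to -0.02. It passed under 6 of 32 alternatives: without WT library 2 (limma adjusted p = 0.0467), R6/1 library 3 (0.0284) or R6/1 library 4 (0.0346), with quantile normalization (0.0482), with library weights (0.0496) and with a pseudocount of 0.1 (0.0285), where the difference was -0.56. Otx2 stood at 1.01 and 0.767 RPKM, a difference of -0.30 ± 0.18 (SE, limma adjusted p = 0.160), which passed only without R6/1 library 9 (0.0384). Clic6 (-0.16), Prlr (-0.06), Folr1 (-0.04) and Slc4a5 (-0.00) had intervals on both sides of 0, the widest from -0.39 to 0.30 for Folr1.

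The plot of each gene against Ttr shows these differences as the gap between parallel lines. Whether the lines were parallel was tested by letting the slope differ between genotypes, and no gene of 14445 passed (0.0%), with 676 at an unadjusted limma p under 0.05. For the 9 genes the slope in R6/1 minus that in WT ran from -0.11 for Sostdc1 to 0.12 for Slc4a5, with limma adjusted p from 0.963 to 0.993. The point pattern is curved for several genes, whose levels level off at low Ttr.

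**Figure D3:**
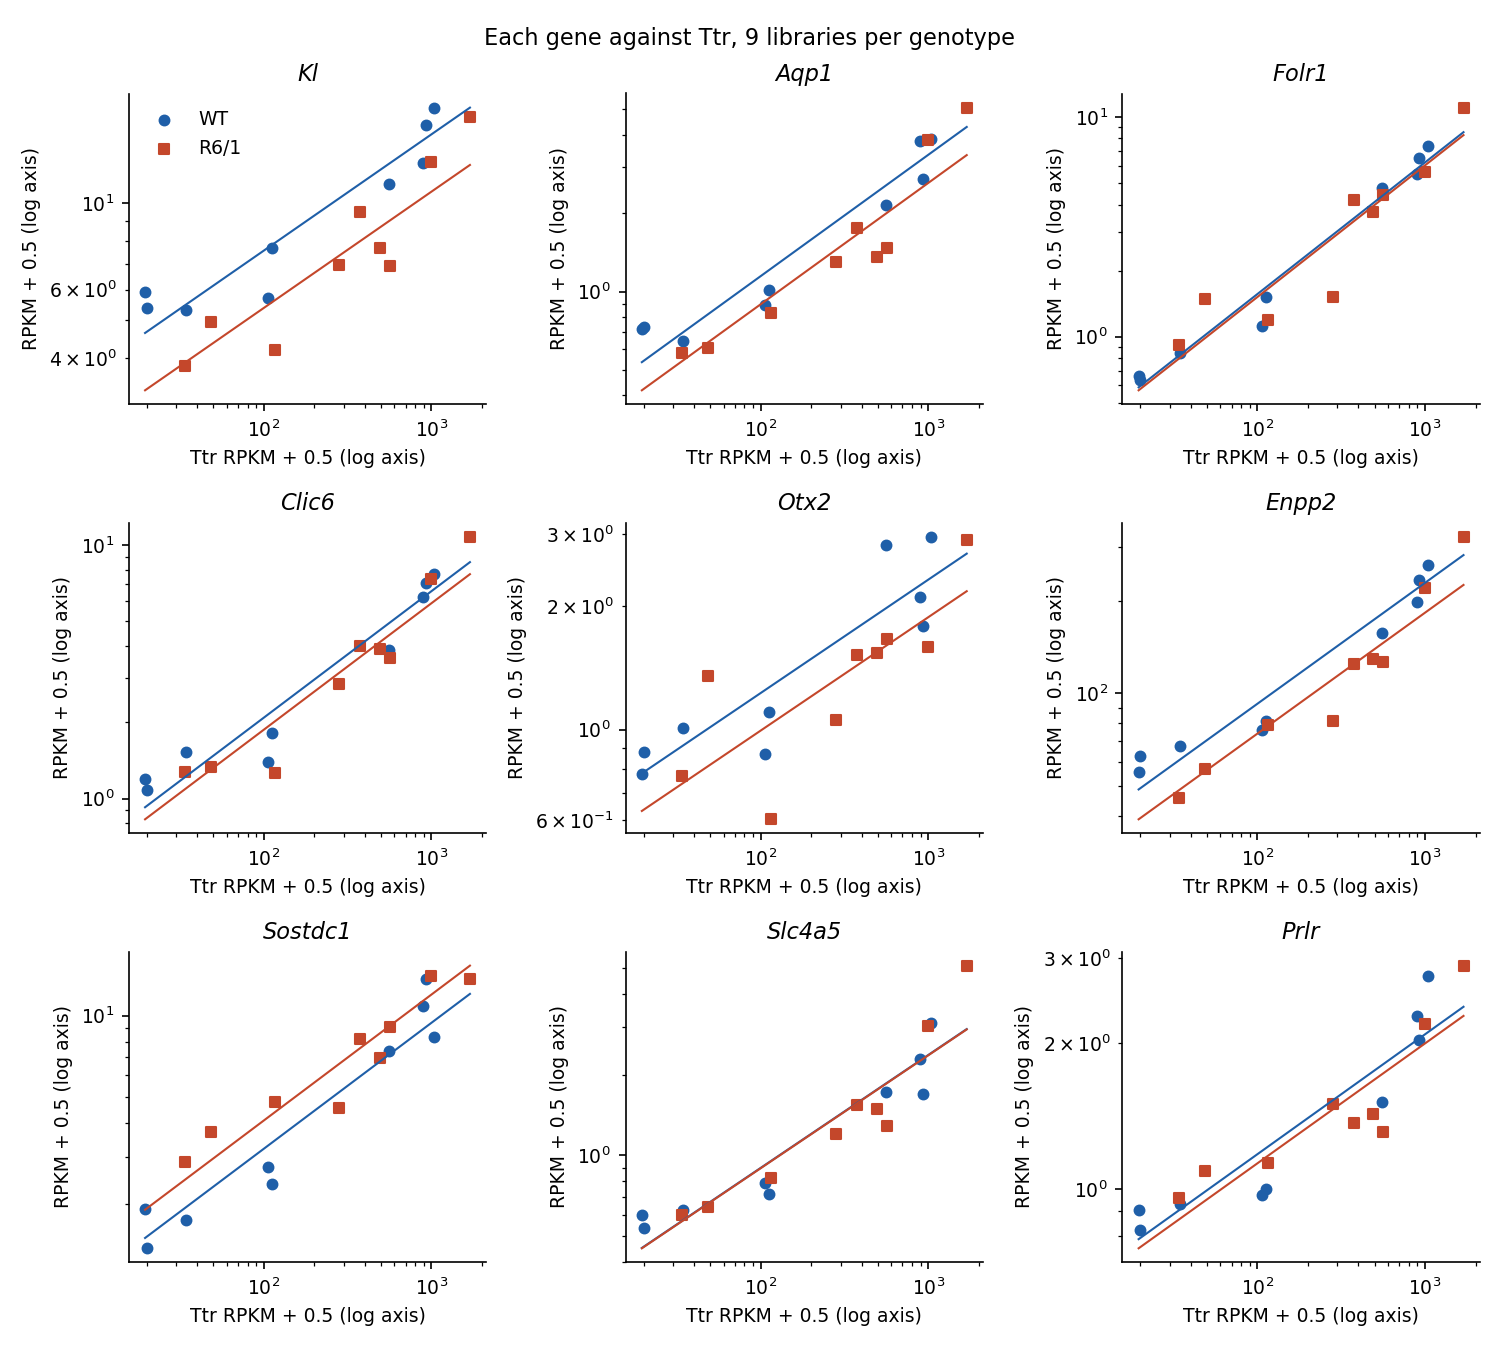
RPKM + 0.5 of each of 9 genes against Ttr RPKM + 0.5, both on log axes, with 9 WT libraries (blue circles) and 9 R6/1 libraries (red squares) and parallel fitted lines for the genotypes. The R6/1 line is below the WT line for Kl (by 0.49 on the log2 scale) and Enpp2 (by 0.32), above it for Sostdc1 (by 0.35), and on top of it for Slc4a5.

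On the linear scale this levelling off can be read as the part of each gene's RPKM that a line against Ttr leaves at a Ttr of 0. For Kl that intercept was 4.82 ± 0.53 RPKM (SE, 9 libraries) in WT and 3.80 ± 0.60 in R6/1, or 52.3% and 49.7% of its mean. For Enpp2 it was 56.7 ± 5.3 RPKM (SE, 9 libraries) in WT and 47.8 ± 5.3 in R6/1, or 42.9% and 36.3% of its mean. For Sostdc1 it was 1.08 ± 0.82 RPKM (SE, 9 libraries) in WT and 3.46 ± 0.85 in R6/1. For Prlr it was 0.312 ± 0.078 RPKM (SE, 9 libraries) in WT and 0.471 ± 0.071 in R6/1, or 32.2% and 45.1% of its mean. It was 37.3% and 39.4% of the mean for Otx2 and 16.0% and 15.3% for Clic6. Folr1, Aqp1 and Slc4a5 had intercepts within 1 SE of 0 in both genotypes. The lines were fitted to each genotype apart, and their slopes differed too: higher in R6/1 than in WT for Slc4a5 and lower for every other gene. On this scale Kl was thus lower in R6/1 in both its intercept and its slope, as were Enpp2, Aqp1 and Otx2. Sostdc1, Folr1, Clic6 and Prlr had a higher intercept and a lower slope in R6/1. The intercepts are extrapolations below the lowest Ttr, and intercepts and slopes are given with no test.

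Markers of cell types that are also known to express Kl or Enpp2 differed between the genotypes. Of 7 oligodendrocyte genes, 5 were lower in R6/1 at equal Ttr and 2 did not pass, beside 23.6% of all tested genes that were lower, and their summed level ran from 1023 to 1315 RPKM in WT and from 632 to 1086 in R6/1. All 7 hippocampal neuron genes were lower in R6/1 at equal Ttr, and their summed level ran from 279 to 336 RPKM in WT and from 163 to 207 in R6/1. The part of either cell type in the levels of Kl and Enpp2 was not tested.

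**Figure D4:**
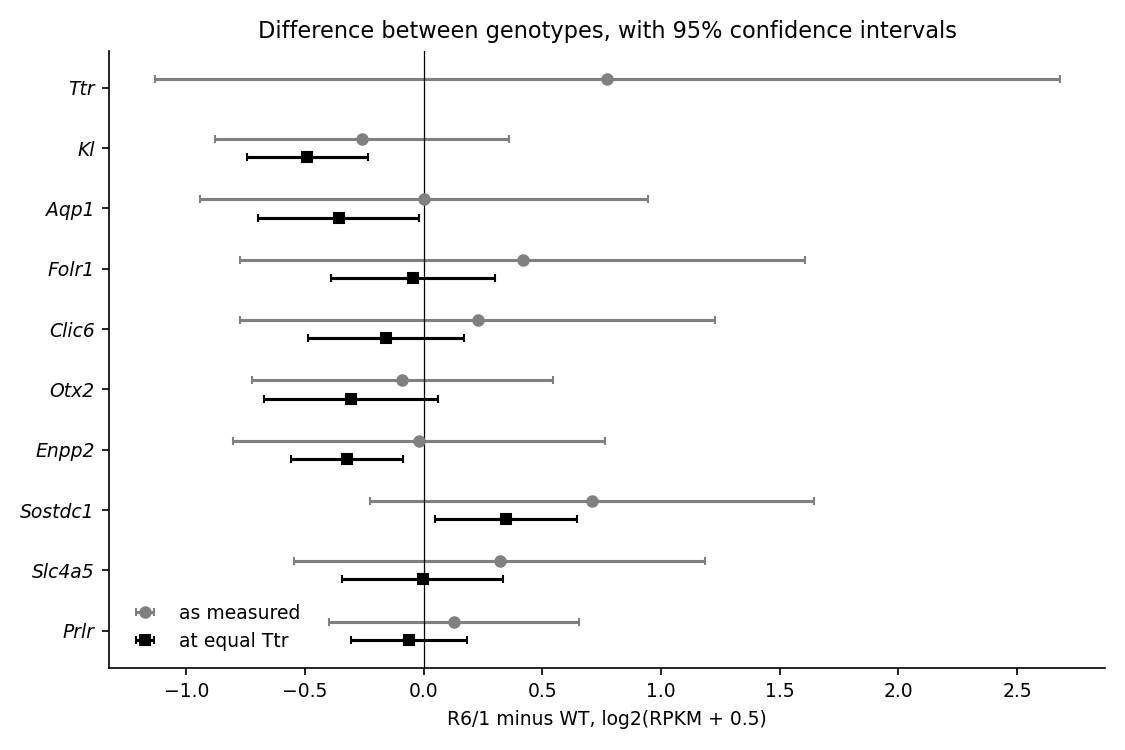
Difference between R6/1 and WT on log2(RPKM + 0.5) for the 10 genes as measured (grey circles) and, for the 9 genes other than Ttr, at equal Ttr (black squares), with 95% confidence intervals from limma over 18 libraries. All 10 grey intervals include 0. The black intervals of Kl, Enpp2 and Aqp1 lie wholly below it and that of Sostdc1 wholly above it, and of these Kl and Enpp2 passed the adjusted threshold.

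The further choroid plexus genes give the same comparison for genes outside the 10. As measured, 2 of 23 were higher in R6/1 (Ace and Perp), 1 was lower (Car12) and 20 did not pass. Of all genes tested as measured, 24.8% were higher and 23.5% lower. At equal Ttr, 2 were higher, 7 were lower and 14 did not pass, and 25.0% of all genes were higher and 23.6% lower. The median difference of the list was -0.26 at equal Ttr and -0.01 as measured, beside 0.00 over all genes. Here too the difference of Ttr enters through positive slopes, and the list was not examined with other covariates. Ace, the angiotensin-converting enzyme, ran from 2.97 through 3.64 to 7.68 RPKM in WT and from 4.92 through 8.10 to 15.3 in R6/1. It was higher by 0.60 ± 0.09 at equal Ttr (SE, limma adjusted p = 2.8e-05). Perp, a gene of cell junctions, was higher by 0.33 ± 0.09 (SE, limma adjusted p = 0.00304).

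The lower genes included Car12, a carbonic anhydrase that helps make bicarbonate. It ran from 5.95 through 10.5 to 18.4 RPKM in WT and from 2.54 through 3.27 to 8.76 in R6/1, so the groups overlapped although most R6/1 libraries were below the lowest WT library. Its difference at equal Ttr was -1.48 ± 0.16 (SE, limma adjusted p = 3.4e-07). Sulf1, which trims sulfate from heparan sulfate, differed by -0.67 ± 0.10 (SE, limma adjusted p = 2.0e-05). Rdh5 (-0.66), the lipopolysaccharide-binding protein gene Lbp (-0.62), the potassium channel gene Kcnj13 (-0.56), Calml4 (-0.54) and Igfbp2 (-0.42), which binds insulin-like growth factors, also passed. Not all of these genes are restricted to the choroid plexus, and Car12 and Igfbp2 had slopes on Ttr of only 0.16 and 0.15. Among 7 ependymal genes, 2 were lower at equal Ttr, Ak7 (-0.44) and Ccdc153 (-1.10), beside 23.6% of all tested genes. All 7 had negative differences, against 6 as measured. Their slopes on Ttr were positive too, so the difference of Ttr enters here as well.

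**Figure D5:**
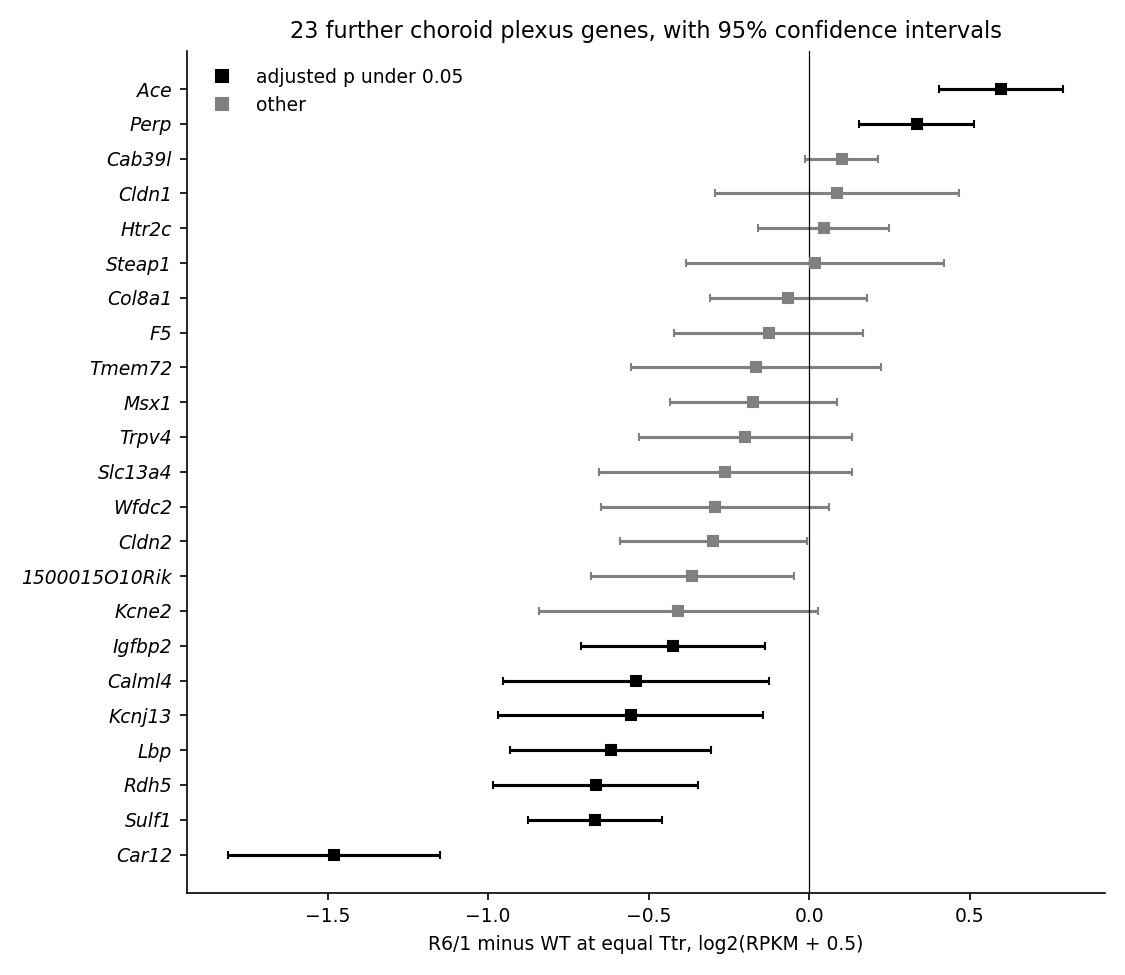
Difference between R6/1 and WT at equal Ttr on log2(RPKM + 0.5) for 23 further choroid plexus genes, sorted, with 95% confidence intervals from limma over 18 libraries. Black squares mark an adjusted p under 0.05: Ace and Perp above 0, and 7 genes from Igfbp2 (-0.42) to Car12 (-1.48) below it.

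On build NCBIM37 (mm9) the 10 genes lie on 8 chromosomes: Ttr at chr18:20823751-20832825, Kl at chr5:151755182-151796384, Aqp1 at chr6:55286426-55298549, Folr1 at chr7:109006845-109019302, Clic6 at chr16:92485981-92541488, Otx2 at chr14:49277354-49287319, Enpp2 at chr15:54670453-54751701, Sostdc1 at chr12:37040756-37045039, Slc4a5 at chr6:83169822-83254939 and Prlr at chr15:10106993-10303504. All are annotated as protein-coding. Ttr overlaps the annotated gene Gm16090 on the other strand, and Clic6 and Prlr overlap 2410124H12Rik and Agxt2 on their own strand, where counting could split or share reads. In the deposited lamin B1 domains, the start sites of Enpp2 and Sostdc1 lay in a domain of both genotypes, that of Ttr in a WT domain only, that of Prlr in an R6/1 domain only, and the other 6 in none. The Ttr start was 0.0297 Mb outside the nearest R6/1 domain. With 1 list per genotype these differences have no replicate spread.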

How the data were processed

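RNA-seq of 18 hippocampus libraries was analysed as deposited; ATAC-seq and ChIP reads were not analysed here. Stranded libraries of mRNA were sequenced, per the labels' protocols. The submitters' processing notes name TopHat, DESeq2 and the build mm9; the counter and the annotation are not given in the sources used here. The authors deposited RPKM per gene and, in a table of their comparison, a mean normalized count (a signal scaled by size factors), log2 fold changes and their errors, a score for each test, and each p-value before and after adjustment. The deposited RPKM gave back whole reads for 99.87% to 99.91% of values, within 0.05 of a read, which gave the depths. The deposited lamin B1 domains carry 1 score each, which was not used.

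Genes averaging 0.5 RPKM or more were tested with limma 3.58.1 (R 4.3.3; lmFit and eBayes with trend, two-sided) on log2(RPKM + 0.5), with Benjamini-Hochberg adjustment over all genes tested and a threshold of 0.05. A fold change on this scale understates changes of low genes. All 18 libraries entered each fit, without and with log2(Ttr RPKM + 0.5) as a covariate, Ttr itself being left out of the latter. Correlations were tested with exact permutation over all pairings of 9 libraries (SciPy 1.17.1, Python 3.11.15). In WT the largest gap in log2 Ttr, between 112 and 556 RPKM, was 40.3% of the range, under the 50% set for separate clusters. The genes named outside the 10 are the 10 with the highest r to Ttr and genes of the lists. On simulated data, 54% of changes of 0.3 on the log2 scale were recovered in the genotype comparison and 56% at equal Ttr. For changes of 1 these were 94% and 98%, and 3.98% and 6.49% of the calls were unchanged genes. The changes were put on genes drawn at random, each with its own spread, and on far fewer genes than passed in the data. These rates do not hold for the 10 genes, whose SE as measured ran from 0.25 (Prlr) to 0.91 (Ttr). Same-numbered libraries of the genotypes were not paired in the main fits. The members, lists and tests were chosen with earlier results of these data known. Alternatives were other pseudocounts, filters, scalings and covariates, a replicate block, library weights and leaving out each library.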

Additional observations from a re-analysis of the deposited data

Results flagged for a closer look

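In 38 groups of 9 libraries (each of the 10 genes as measured and 9 at equal Ttr, in each genotype), 3 had a highest or lowest library set apart by more than the 95% limit for the gap relative to the range. For independent groups of normally distributed values, chance alone gives about 1 in 20, or 1.9. These groups share libraries and move together, and their RPKM values are skewed, so 1.9 is only a rough guide. Folr1 in R6/1 library 3 was 10.5 RPKM, and the next library was 5.13. Otx2 in the same library was 2.41 RPKM, and the next was 1.16. R6/1 library 3 also had the highest Ttr of all 18. At equal Ttr, Folr1 in WT library 2 was the lowest at 0.752 on the log2(RPKM + 0.5) scale, the next being 1.15.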

How the results depend on the processing

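The counts of genes called in the genotype comparison stayed between 6156 and 7636 over 30 alternatives, with none of the 10 members called in any. Each library's own total of reads split those calls into 5110 higher and 2526 lower, in place of 3586 and 3394. At equal Ttr the count was 7026, and 0 with a slope fixed at 1, a scale on which every gene takes up the whole spread of Ttr. Members called at equal Ttr numbered 2, against 4 with a pseudocount of 0.1 or with library weights, 1 with Ttr on the linear scale, 0 with a slope fixed at 1, and 1 to 3 when each library was left out. Genes whose slope on Ttr differed between genotypes numbered 0, and 0 to 1 when each library was left out, the 1 being 1700063D05Rik without WT library 3, named after its values were seen; it is not a member. Replicate numbers gave no clear pairing: same-numbered libraries correlated at -0.05 to 0.24, and 2 of 9 correlated best with their own number. These values do not exclude some shared structure. With the number as a replicate block, 7133 genes were called between genotypes, against 6980 without it. At equal Ttr the block gave 6685 genes, and 2 members were called.

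Small differences that did not pass changed sign, and the cause was not tested. As measured, these were Aqp1 (-0.0188 with a pseudocount of 0.1, and -0.227 to 0.178 when each library was left out), Otx2 (0.0814 with library weights, -0.234 to 0.04998) and Enpp2 (0.0440 with quantile normalization, 0.0543 with each library's own total, 0.134 with library weights, -0.213 to 0.141). At equal Ttr they were Folr1 (0.0647 with a pseudocount of 0.1, 0.156 with the mean of the other members, 0.0447 with the square of Ttr added, 0.166 with linear Ttr, -0.145 to 0.0681), Clic6 (0.00768 with linear Ttr), Sostdc1 (-0.0635 with a slope fixed at 1) and Prlr (0.00941 with the mean of the other members, 0.0123 with the square added, 0.0146 with linear Ttr, -0.101 to 0.00433). Slc4a5 was 0.0321 with a pseudocount of 0.1, 0.00472 with own totals, 0.0137 with the replicate block, 0.0367 with Folr1 as covariate, 0.130 with the mean of the other members, 0.119 with the square added, 0.128 with linear Ttr, and -0.0878 to 0.0614 when each library was left out. Differences of slope changed sign for Folr1 (0.00231 with a pseudocount of 1, -0.0914 to 0.0413), Otx2 (0.000559 with a pseudocount of 0.1, -0.0804 to 0.0707) and Prlr (-0.0773 to 0.00325). Depth limits Aqp1, Folr1, Otx2 and Slc4a5, whose lowest libraries hold 3 to 10 reads. Linear Ttr and its square were added after the data were seen.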
